A study of Mus musculus with 12 samples.

Results

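The genes described here are 8 markers of mouse embryonic stem cells (mESCs), *Dppa2*, *Dppa3*, *Dppa4*, *Dppa5a*, *Utf1*, *Tdh*, *L1td1* and *Trim28*, chosen by name from a list of marker genes. By GENCODE M1 gene name they account for 8 of the 34079 genes and for 26 of the 121429 transcripts with an exonic entry, and their exonic and intronic entries number 52 of 213131. The cells were of the DTCM23/49 XY mESC line, grown in serum with leukemia inhibitory factor on gelatin, and all of them received 200 µM 4-thiouridine (4sU), also those that gave total RNA. The uridine analog 4sU enters RNA made while it is present, so that newly transcribed RNA can be biotinylated and pulled down. Labeled and total RNA were sequenced after 15, 30 and 60 min of labeling in 2 biological replicates, which were cultures divided from the same line, giving 6 labeled and 6 total RNA libraries. No cells without 4sU are among the samples. Values are length-normalized abundances, about 20 times TPM, in which each library sums to between 19988830 and 19992902 and values of 1 or less are missing. The depth of each library is therefore unknown from the values, no counting error can be given, and a level is a share of its library. Fewer cells of a type and less RNA per cell cannot be told apart in such bulk samples.

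Pluripotent cells of the early embryo express a set of genes that fall silent as they differentiate, among them the developmental pluripotency-associated (Dppa) genes. In labeling experiments, labeled RNA holds the most recently made transcripts, while total RNA holds all that has accumulated, so transcripts that are degraded slowly are relatively depleted from the labeled fraction, and introns, which are removed soon after transcription, are relatively enriched in it. The mESC identity of the libraries was checked on other genes. The 11 measured mESC markers, including *Pou5f1*, *Nanog* and *Sox2*, summed to between 8053 and 11264 per library, whereas 6 primitive endoderm markers summed to 4.15 to 10.2, 6 trophectoderm markers to 6.29 to 14.02, 5 germ layer markers to 4.84 to 12.9 and 7 fibroblast markers to 23.9 to 56.8. Between 1 and 3 markers of each of these 4 lists were at 0 in every total RNA library. The largest part of the mESC sum was *Tdgf1*, with a mean of 5234 in total RNA. *Nanog* was at 1544, *Sox2* at 342 and *Pou5f1* at 237.

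Levels of the 8 genes were compared on the longest protein-coding transcript of each gene in the table, called its main transcript, since a sum over isoforms grows with their number. *Dppa5a*, which encodes a KH-domain RNA-binding protein, was highest in total RNA at 6766 ± 799 (SD, n = 6), above 99.3% of 8763 protein-coding genes. These are the genes whose main transcript had a mean of at least 20 over the 12 libraries, and the ranks of level are among them. *Utf1*, a chromatin-associated factor whose enhancer is a known OCT4 and SOX2 target, followed at 3838 ± 406, and the ranges of these genes did not overlap with each other or with that of the next gene. *L1td1*, an RNA-binding protein derived from a LINE-1 open reading frame, was at 1571 ± 213, *Trim28*, the corepressor KAP1 that joins KRAB zinc finger proteins to histone methylation, at 1499 ± 178, and *Dppa3*, also known as Stella, at 1236 ± 305. The ranges of these 3 genes overlapped, so that their order is not set beyond the spread between libraries. *Tdh*, threonine dehydrogenase, which feeds threonine carbon to glycine and acetyl-CoA in mitochondria, was at 619 ± 66.2, below every library of the 5 genes above it. *Dppa2* and *Dppa4*, neighboring genes for SAP-domain chromatin proteins that activate genes of the 2-cell embryo, were lowest, at 297 ± 38.3 and 297 ± 33.5, and were above 80.1% of genes each. In labeled RNA the order was *Dppa5a* (8601 ± 2686), *Utf1* (2429 ± 471), *L1td1* (2042 ± 301), *Dppa3* (1269 ± 326), *Trim28* (1113 ± 174), *Tdh* (489 ± 105), *Dppa4* (344 ± 32.0) and *Dppa2* (248 ± 51.8). The order depends on this choice of transcript. On sums over transcripts in total RNA, the mean of *Trim28* (8408 ± 1013) was above that of *Dppa5a*. That of *L1td1* (4300 ± 686) was above that of *Utf1*, and the ranges overlapped in both cases.

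**Figure D1:**
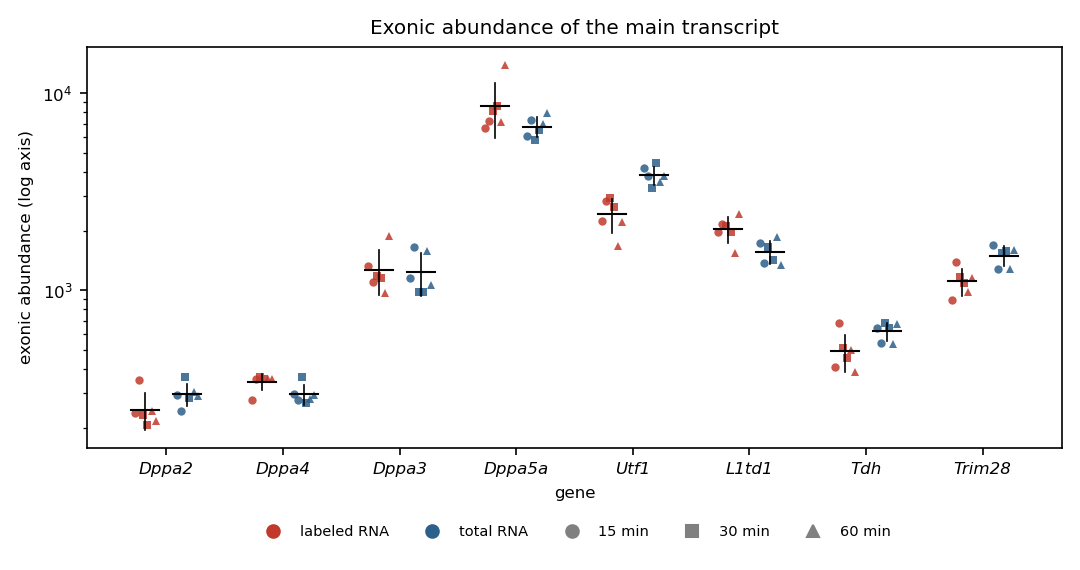
Exonic abundance (log axis) of the main transcript of each gene, with 1 point per library, labeled RNA in red, total RNA in blue and labeling times as symbols; horizontal lines are means and vertical lines SD over 6 libraries. *Utf1* is the gene whose labeled libraries, 1682 to 2929, all lie below its total libraries, 3308 to 4419.

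The genes lie on 6 chromosomes. Positions are those of GENCODE M1 on NCBIM37, since the deposited table gives transcript identifiers without coordinates. *Dppa4* (ENSMUSG00000058550, chromosome 16 from 48283848 to 48294405, plus strand) and *Dppa2* (ENSMUSG00000072419, chromosome 16 from 48310590 to 48319836, plus strand) are neighbors, and the main transcript of each has 7 exons. *Dppa3* (ENSMUSG00000046323, chromosome 6 from 122576428 to 122580290, plus strand) has 4 exons and *Dppa5a* (ENSMUSG00000060461, chromosome 9 from 78214859 to 78215984, minus strand) has 3. *Utf1* (ENSMUSG00000047751, chromosome 7 from 147129688 to 147131011, plus strand) has 2 exons, while *Trim28* (ENSMUSG00000005566, chromosome 7 from 13609501 to 13616384, plus strand) has 17. *L1td1* (ENSMUSG00000087166, chromosome 4 from 98393425 to 98405171, plus strand) has 5 exons and *Tdh* (ENSMUSG00000021953, chromosome 14 from 64111184 to 64127929, minus strand) has 9.

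Copies of several of these genes, some of them near-identical, lie elsewhere in the genome. The main transcript of each gene was aligned to NCBIM37, and a copy was counted where at least 30% of the transcript aligned at 85% identity or more outside the gene. *Dppa5a* had 10 such loci, *Dppa2* had 7, *Dppa3* and *Dppa4* had 3 each, *Tdh* and *L1td1* had 1 each, and *Utf1* and *Trim28* had 0. Many of these loci are annotated as pseudogenes and carry values of their own. *Gm9788*, a pseudogene on chromosome 19 that matches *Dppa2* at 98.2% identity, was at 615 ± 96.4 in total RNA, which is 207% of the value of *Dppa2* itself. *Gm13929*, a *Tdh* pseudogene on chromosome 2 with 96.4% identity, was at 831 ± 95.2, or 134% of *Tdh*. *Dppa5b* on chromosome 9 (97.7% identity) was at 5856 ± 1238 and *Gm6798* on chromosome X (94.8%) at 3900 ± 567, or 86.5% and 57.6% of *Dppa5a*. *Gm6269* on chromosome X, with 97.7% identity to *Dppa3*, was at 592 ± 157, or 47.9% of it. The values of copies did not all go with those of their gene. *Gm6083*, with 95.97% identity to *Dppa5a*, was at 35.2 ± 11.7, or 0.52% of it, and *Gm6269* correlated with *Dppa3* at r = -0.74 over the 12 libraries, as a description of points that share their library. How reads were divided between a gene and its copies is not given in the values, and the part of the copies in the results below was not tested. The single copy of *L1td1* has no entry in the table.

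The closeness of these copies is shown by 60-base windows of the coding sequence beside the copy most like the gene across libraries, each the first window with a difference and identical ends. Capitals mark the base that differs in each pair, and all are written 5′ to 3′. The *Dppa2* window covers bases 31 to 90 of ENSMUST00000097175, and its copy lies at chr19:41534303-41534362 on the plus strand of NCBIM37.
Dppa2: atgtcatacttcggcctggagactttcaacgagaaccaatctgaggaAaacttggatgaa
Gm9788: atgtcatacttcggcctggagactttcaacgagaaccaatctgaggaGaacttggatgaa
The *Tdh* window covers bases 438 to 497 of ENSMUST00000022522, and its copy lies at chr2:111840378-111840437 on the plus strand.
Tdh: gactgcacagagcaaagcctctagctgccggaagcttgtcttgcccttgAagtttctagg
Gm13929: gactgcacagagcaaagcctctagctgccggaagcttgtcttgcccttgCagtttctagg
The *Dppa5a* window covers bases 88 to 147 of ENSMUST00000071991, and its copy lies at chrX:8231600-8231659 on the plus strand.
Dppa5a: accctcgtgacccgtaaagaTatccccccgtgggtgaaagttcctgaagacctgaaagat
Gm6798: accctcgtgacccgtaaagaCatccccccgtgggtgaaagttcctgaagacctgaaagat
Each window differs from its copy at 1 of 60 bases.

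**Figure D2:**
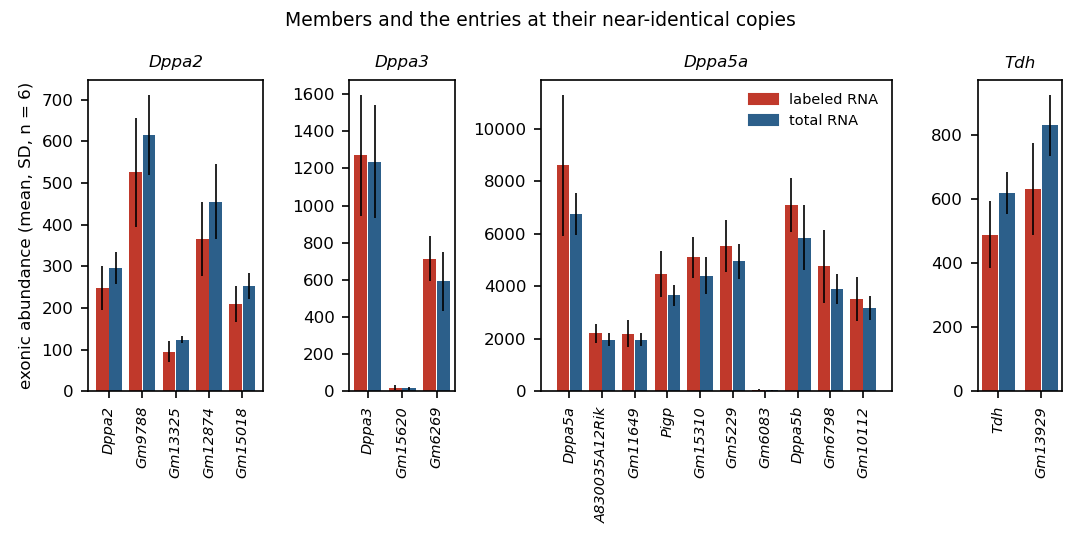
Exonic abundance of *Dppa2*, *Dppa3*, *Dppa5a* and *Tdh* (main transcript) beside the entries at their copies of at least 85% identity, as mean and SD over 6 labeled (red) and 6 total (blue) libraries, with a scale of its own for each gene. *Gm9788* and *Gm13929* carry higher values than *Dppa2* and *Tdh*, and 8 of the 9 entries at *Dppa5a* copies lie at 1962 or more in total RNA.

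To ask how the exonic RNA of each gene compared between newly made and total RNA, abundances were summed over the transcripts of a gene and fitted with limma on log2(value + 1) over 13977 genes. Differences are given as log2 of labeled over total RNA with their SE, and a gene was called at an adjusted p under 0.05. Of the 8 genes, *Utf1* and *Trim28* fell in labeled RNA and none rose. Over all genes tested 16.8% were called, 5.28% higher and 11.6% lower, and the median difference was -0.05. With each pair of labeled and total libraries of the same time and replicate as a block, called the replicate block here, 1270 genes were called, against 2353 without it.

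*Utf1* ranged from 1682 over a median of 2456 to 2929 in labeled RNA, and from 3308 over 3799 to 4419 in total RNA. Every labeled library lay below every total library. The means were 2429 ± 471 and 3838 ± 406 (SD, n = 6), the difference was -0.68 ± 0.12 (adjusted p = 0.00479), and 5.01% of genes had a lower one. The call was kept with the replicate block and without any 1 library. It was lost with either replicate left out, as were nearly all calls over all genes. *Utf1* has no copy that met the criteria and a single transcript in the table.

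*Trim28* ranged from 5347 over 6290 to 7995 in labeled RNA and from 7085 over 8836 to 9395 in total RNA as a sum over its 9 transcripts. The ranges overlapped, and the labeled library was lower in 5 of 6 pairs of the same time and replicate. The difference was -0.39 ± 0.12 (adjusted p = 0.0420). The call was lost with the replicate block (adjusted p = 0.100) and without any of 8 libraries: labeled RNA at 15 min replicate 1 (0.0890), 30 min replicate 1 (0.0848) and replicate 2 (0.101) and 60 min replicate 1 (0.0599), and total RNA at 15 min replicate 1 (0.103), 30 min replicate 1 (0.0853) and replicate 2 (0.0910) and 60 min replicate 2 (0.0950).

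*Tdh* and *Dppa2* had lower means in labeled RNA without passing the test. *Tdh* ranged from 1800 over 2402 to 3390 in labeled RNA and from 2537 over 3184 to 3416 in total RNA (-0.33 ± 0.15, adjusted p = 0.143). *Dppa2* ranged from 208 over 235 to 350 in labeled RNA and from 245 over 293 to 363 in total RNA (-0.27 ± 0.15, adjusted p = 0.221). For both genes the labeled library was lower in all pairs but 1, that at 15 min of replicate 2. Without the labeled library at 15 min of replicate 2 both genes passed the test, *Tdh* at -0.45 (adjusted p = 0.0264) and *Dppa2* at -0.39 (0.0382). *Tdh* also passed it with libraries centred on the median of all genes (-0.31, adjusted p = 0.0487), where 3 of the 8 genes were called and, over all genes, 1055 were higher and 2053 lower.

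*Dppa5a*, *L1td1* and *Dppa4* had higher means in labeled RNA, also without passing the test. *Dppa5a* ranged from 6629 over 7661 to 13887 in labeled RNA and from 5799 over 6754 to 7910 in total RNA (0.31 ± 0.15, adjusted p = 0.182), with the highest value in the labeled library at 60 min of replicate 2. *L1td1* ranged from 3863 over 5356 to 6156 in labeled and from 3489 over 4137 to 5478 in total RNA (0.29 ± 0.14, adjusted p = 0.176), and passed the test without the labeled library at 60 min of replicate 1 (0.39, adjusted p = 0.0435). *Dppa4* ranged from 507 over 678 to 696 in labeled and from 467 over 515 to 692 in total RNA (0.27 ± 0.12, adjusted p = 0.148). *Dppa3* did not move in either direction beyond its spread, with 2018 over 2371 to 3530 in labeled and 2055 over 2310 to 3649 in total RNA (-0.02 ± 0.17, adjusted p = 0.949).

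*Dppa2* and *Dppa4* act together and lie side by side, and their total RNA levels were alike, but their differences had opposite signs. The ratio of *Dppa4* to *Dppa2*, chosen after these values were seen and therefore not tested, was 1.00 ± 0.0711 (SD, n = 6) in total RNA and 1.43 ± 0.275 in labeled RNA on the main transcripts. It was higher in labeled than in total RNA in 5 of 6 pairs, and its ranges, 1.01 to 1.70 and 0.922 to 1.13, overlapped. On sums over transcripts the ranges were 1.99 to 3.27 in labeled and 1.53 to 1.94 in total RNA. Both genes have near-identical copies.

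**Figure D3:**
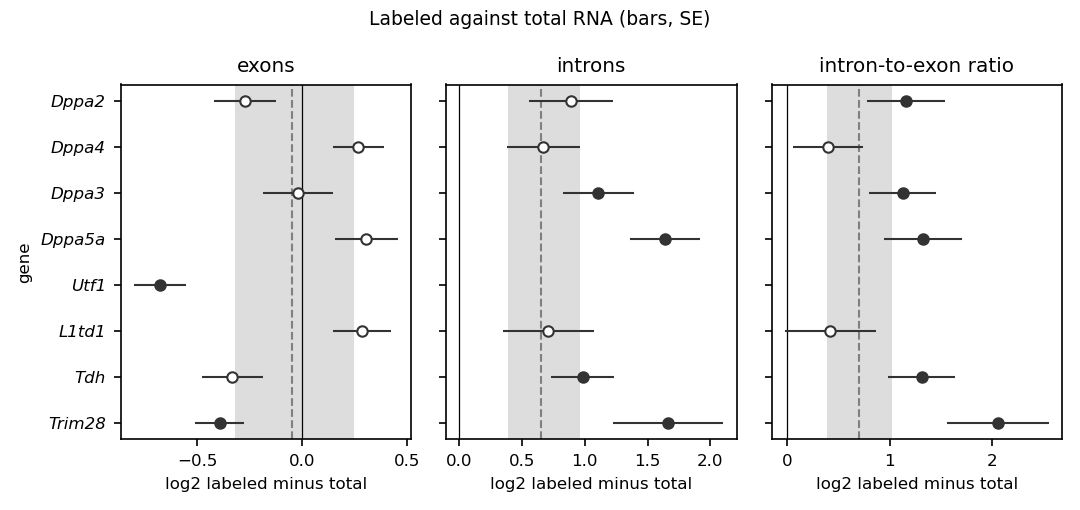
Log2 differences between labeled and total RNA of the 8 genes for exons, introns and the intron-to-exon ratio, with SE; filled points passed the test, the dashed line is the median of all genes tested and the grey band its quartiles. *Utf1* lies lowest for exons and has no value for introns, and *Trim28* lies highest for introns and for the ratio on these sums, but at 0.92 and 1.36 on its main transcript alone, beside 1.64 and 1.33 for *Dppa5a*.

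Single transcripts were compared in the same way over 45537 transcripts, of which 17.3% were called. Of the 26 transcripts of these genes, 3 were called, and they belong to *Utf1*, *Trim28* and *Tdh*. The single *Utf1* transcript ENSMUST00000168457 and the main *Trim28* transcript ENSMUST00000005705 fell in labeled RNA, the latter from 1499 ± 178 to 1113 ± 174 (-0.43 ± 0.13, adjusted p = 0.0395).

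The exonic value of the *Tdh* transcript that was called moved the other way from those of the other 5 *Tdh* transcripts. ENSMUST00000167685, a processed transcript without a coding frame on chromosome 14 from 64122693 to 64127593, is named after its value was seen, since it holds 1.53% of the gene's sum in labeled RNA and 0.442% in total RNA. It ranged from 21.7 over 35.2 to 62.5 in labeled RNA and from 8.04 over 11.6 to 24.3 in total RNA. The labeled median was above the total median but the ranges overlapped, and the difference was 1.42 ± 0.29 (adjusted p = 0.00759), above that of 98.3% of transcripts. Its mean was 37.8 in labeled and 13.6 in total RNA. It thus met the minimum mean of 20 over the 12 libraries only through the labeled ones, so its call and rank are a description and not support for a rise. Of its exonic bases, 91.5% lie outside the exons of the main transcript, in the first intron of the latter. Its intronic value was above its exonic one, at 153 ± 59.3 in labeled and 70.0 ± 16.3 in total RNA. The summed introns of *Tdh* were also higher in labeled RNA, as given below. The part of unspliced *Tdh* RNA in the exonic value of this transcript was not tested. The other 5 *Tdh* transcripts lay between -0.48 and -0.27 and none passed the test. They are the main transcript ENSMUST00000022522 (619 ± 66.2 in total RNA), the nonsense-mediated decay transcripts ENSMUST00000168669 (763 ± 103), ENSMUST00000165776 (547 ± 63.7) and ENSMUST00000168488 (746 ± 76.3), and the retained intron transcript ENSMUST00000170772 (377 ± 47.7).

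The 9 *Trim28* transcripts comprise the coding transcript and 8 annotated with retained introns, among which the differences ranged from -0.79 to 0.19 and none passed the test. The highest was ENSMUST00000123778, at 3886 ± 411 in total and 3146 ± 382 in labeled RNA, or 46.2% and 49.1% of the gene's sum. It has 2 exons, and 13.98% of its exonic bases lie outside the exons of the main transcript. ENSMUST00000129122, at 1419 ± 465 in total and 850 ± 354 in labeled RNA, held 16.9% and 13.3%. Most bases of each of these transcripts overlap exons of the main one, so their values do not measure intron retention.

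*L1td1* has 4 transcripts in the table. The main one, ENSMUST00000154279, was at 2042 ± 301 in labeled and 1571 ± 213 in total RNA (0.37 ± 0.14, adjusted p = 0.0777), and ENSMUST00000173659 was at 2015 ± 406 and 1624 ± 325. The shorter ENSMUST00000152889 and ENSMUST00000171708 were at 532 ± 80.9 and 573 ± 106 in total RNA, with differences of 0.18 and 0.01. Both *Dppa4* transcripts, ENSMUST00000096045 and ENSMUST00000050705, had positive differences of 0.21 and 0.34. The *Dppa3* transcripts ENSMUST00000049644 and ENSMUST00000123429 lay at 0.04 and -0.08. None of these passed the test.

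**Figure D4:**
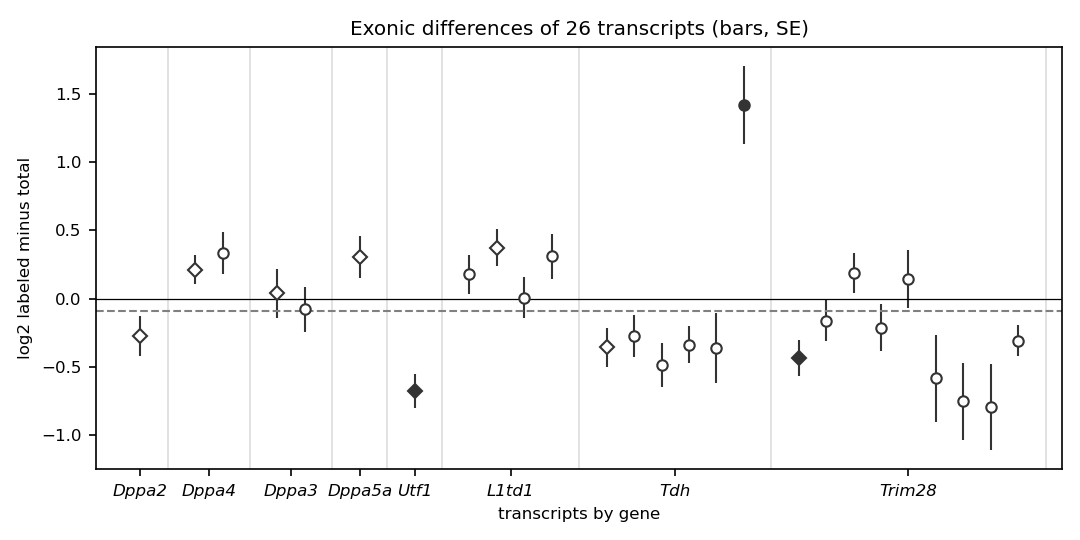
Log2 differences in exonic abundance between labeled and total RNA of all 26 transcripts, grouped by gene, with SE; diamonds are main transcripts, filled points passed the test and the dashed line is the median of all transcripts tested. The *Tdh* transcript at 1.42 stands above the other 5 *Tdh* transcripts, which lie between -0.48 and -0.27. It met the minimum abundance only through its labeled libraries.

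Introns were used to ask how unspliced RNA of the genes compared between the fractions. *Utf1*, whose exonic level is among the highest, had no intronic value in any of the 12 libraries. Its only intron is 97 bases long, at chr7:147130329-147130425 on the plus strand of NCBIM37. The *Utf1* intron is shown whole beside the first intron of *Dppa5a*, the gene with a higher level. The latter intron has 81 bases, at chr9:78215711-78215791 on the minus strand. The intronic value of *Dppa5a* covers its 2 introns, 507 bases in sum, so there is none for the 81-base intron alone. Capitals mark the GT and AG at the intron ends.
Utf1: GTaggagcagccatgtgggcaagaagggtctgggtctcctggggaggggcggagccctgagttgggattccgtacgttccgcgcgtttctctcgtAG
Dppa5a: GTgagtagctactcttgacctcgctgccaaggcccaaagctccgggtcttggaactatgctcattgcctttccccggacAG
Introns were also counted in main transcripts of protein-coding genes with a mean of at least 20. Those that start with GT and end with AG, read on the transcribed strand, make up 98.9% of these 88592 introns. All introns in the main transcripts of the 8 genes do so. Introns of at most 100 bases make up 5.69% of the 88592. Of 33 genes whose main transcript has at most 200 intronic bases, 21 had no intronic value in any library and 12 had one, and *Utf1* is among the 21. With a total RNA level of at least 1000 there were 4 such genes, *Utf1* included, and all 4 had none.

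The other 7 genes were tested with 14780 genes, of which 30.4% were called, 30.2% higher in labeled RNA and 0.21% lower. The median difference over all genes was 0.65. Of the 7 genes, *Dppa5a*, *Trim28*, *Dppa3* and *Tdh* rose in labeled RNA, and all 7 differences were positive. With each library centred on the median of all genes, 0 of the 7 were called and the split over all genes was 822 higher and 996 lower, so each call is relative to total RNA and not to other introns. After centring *Dppa4* lay at -0.03 and the other 6 genes remained positive.

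Summed intronic abundance of *Dppa5a* ranged from 103 over 152 to 288 in labeled RNA and from 27.5 over 55.6 to 76.1 in total RNA, without overlap (1.64 ± 0.28, adjusted p = 0.00177). That of *Tdh* ranged from 587 over 934 to 1462 and from 384 over 481 to 522, also without overlap (0.98 ± 0.25, adjusted p = 0.0109). *Dppa3* ranged from 19.2 over 31.8 to 42.8 and from 7.2 over 13.5 to 19.3, and the labeled library was higher in all 6 pairs (1.11 ± 0.29, adjusted p = 0.0116). These 3 genes thus stood higher in labeled RNA in each pair, as did *Trim28* and *Dppa4*.

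*Trim28* ranged from 109 over 266 to 849 in labeled RNA and from 50.8 over 77.3 to 249 in total RNA (1.66 ± 0.44, adjusted p = 0.0128). Its sum includes the short intron of ENSMUST00000123778, which has a value in 3 labeled and 1 total RNA libraries and is missing in the others, and that of ENSMUST00000125136, which has a value only in the labeled library at 60 min of replicate 1, where it is 435 of the highest sum of 849. On the main transcript alone, an alternative added after seeing the data, the difference was 0.92 ± 0.28 (adjusted p = 0.0246), or 24.7 over 50.5 to 75.5 in labeled and 17.0 over 26.6 to 29.8 in total RNA. *Dppa2* (0.89 ± 0.34, adjusted p = 0.0577), *L1td1* (0.71 ± 0.36, 0.140) and *Dppa4* (0.67 ± 0.29, 0.0914) did not pass the test. With the replicate block *Dppa2* (0.0260) and *Dppa4* (0.0393) passed it, so that 6 of 7 genes did. Without the labeled library at 60 min of replicate 2 all 7 passed, *Dppa2* at 1.15 (0.00825), *Dppa4* at 0.88 (0.0150) and *L1td1* at 0.95 (0.0315), and without that at 15 min of replicate 2 *Dppa2* (0.98, 0.0332) and *L1td1* (0.95, 0.0339) passed.

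Intronic abundance relative to exonic abundance differed widely among the genes. On main transcripts in total RNA, introns were at 0.445% of exons for *Dppa3*, 0.797% for *Dppa5a*, 1.62% for *Trim28*, 3.50% for *L1td1*, 4.11% for *Dppa2*, 7.97% for *Tdh* and 11.1% for *Dppa4*. The median was 12.4% over 7521 protein-coding genes whose main transcript had a mean of at least 20 in exons and 5 in introns. All 7 lay below it, and 0.479% of these genes lay below *Dppa3*. At a low exonic level a gene enters this set only with a high percentage, so the median is not that of all genes. In labeled RNA the 7 genes, in the same order, were at 1.06%, 1.98%, 4.40%, 4.78%, 10.4%, 20.8% and 15.9% against a median of 24.02%. *Tdh* and *Dppa4* changed places between the fractions. Any part of copies in the exonic values was not tested.

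**Figure D5:**
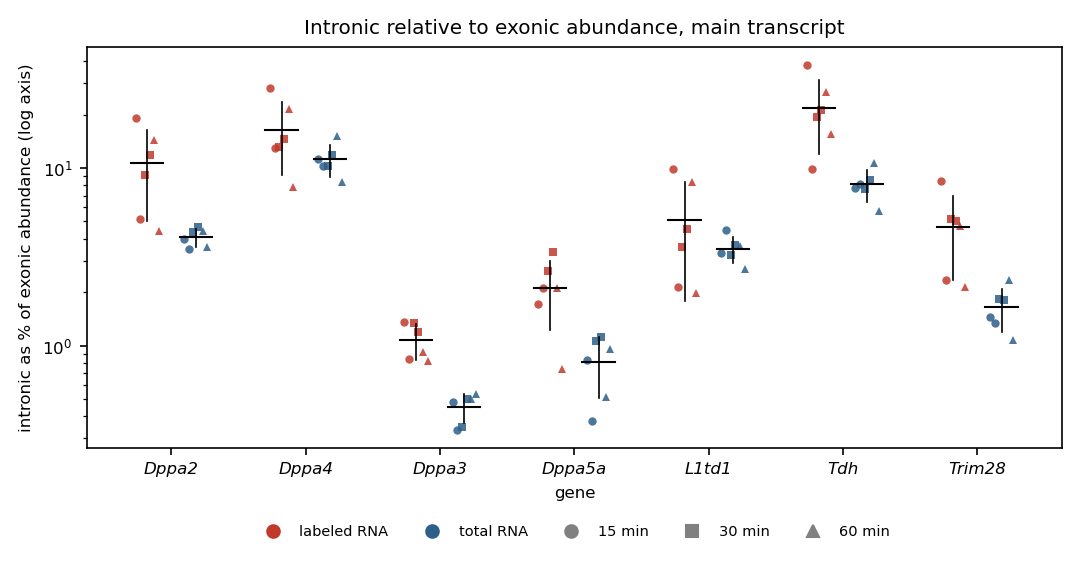
Intronic as percent of exonic abundance (log axis) of the main transcript for 7 genes, with 1 point per library, labeled RNA in red, total RNA in blue and labeling times as symbols; horizontal lines are means and vertical lines SD over 6 libraries. *Dppa3* has the lowest means and no overlap between its labeled (0.818 to 1.35) and total (0.336 to 0.531) libraries.

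The log2 ratio of intronic to exonic abundance, summed over transcripts, was tested in 10228 genes, of which 25.7% were called, 25.5% higher and 0.205% lower, and its median difference was 0.70. Of the 7 genes, 5 rose in labeled RNA. They were *Trim28* (2.06 ± 0.50, adjusted p = 0.0118; on the main transcript alone 1.36 ± 0.38), *Dppa5a* (1.33 ± 0.38, 0.0226), *Tdh* (1.31 ± 0.33, 0.0134), *Dppa2* (1.16 ± 0.38, 0.0374) and *Dppa3* (1.13 ± 0.33, 0.0238). *L1td1* (0.42 ± 0.44, adjusted p = 0.442) and *Dppa4* (0.40 ± 0.34, 0.351) did not pass the test. With libraries centred on the median of all genes, *Trim28* and *Tdh* passed the test, *L1td1* and *Dppa4* lay at -0.31 and -0.33, and over all genes 562 were higher and 464 lower, against 2609 and 21 without centring.

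The ratio moved with the intronic share of whole libraries. Introns held 14.8% and 13.9% of the signal in the labeled libraries of replicate 1 at 15 and 60 min, but 7.24% and 6.99% in those of replicate 2, and 6.53% to 7.41% in total RNA. On main transcripts, these latter labeled libraries had the 2 lowest intronic percentages for 6 of the 7 genes, the exception being *Dppa5a*, and the mean over labeling times was higher in replicate 1 for all 7. For *L1td1* the labeled mean on the main transcript was 7.26% in replicate 1 and 2.89% in replicate 2, and for *Trim28* 6.10% and 3.17%. In the tested ratio of sums, without replicate 1 the difference of *L1td1* was -0.29 and none of the 5 calls was kept, and without replicate 2 the ratio gave 3 calls. The part of this library-wide share in the members' ratios was not tested.

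Calls of the ratio also depended on single libraries. Leaving out any of the 12 libraries left between 2 and 5 of the 5 calls, with *Tdh* and *Trim28* called in each case. The call of *Dppa2* was kept only without the labeled library at 15 min of replicate 2 or at 60 min of replicate 2, and its adjusted p otherwise lay between 0.0563 and 0.0946. That of *Dppa3* was lost without labeled RNA at 30 min of replicate 1 (0.0596) or replicate 2 (0.0692), and total RNA at 15 min of replicate 1 (0.0521) or replicate 2 (0.0588), 30 min of replicate 1 (0.0706) or 60 min of replicate 2 (0.0501). That of *Dppa5a* was lost without labeled RNA at 30 min of replicate 2 (0.0673) or 60 min of replicate 1 (0.0515), and total RNA at 15 min of replicate 2 (0.0652) or 30 min of replicate 1 (0.0533) or replicate 2 (0.0502).

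Rates of RNA metabolism were derived on main transcripts for each labeling time, with synthesis as labeled exonic abundance per hour of labeling, processing as synthesis over intronic abundance in total RNA and degradation as synthesis over the rest of the exonic abundance. Because every library has the same total, the synthesis values fall with labeling time (median of 352, 169 and 83.3 per hour at 15, 30 and 60 min), so the genes are given by their place among protein-coding genes. Only those with a main transcript mean of at least 20 were used. Processing of *Dppa3* lay above 99.4% to 99.6% of genes and that of *Dppa5a* above 99.0% to 99.4% at the 3 labeling times. *Trim28* followed above 94.9% to 96.0%, *L1td1* above 92.4% to 94.8% and *Dppa2* above 79.8% to 89.8%. *Dppa4* and *Tdh* lay closer to the middle, above 60.1% to 67.3% and 59.3% to 65.5%. *Utf1* had no processing rate, and its synthesis lay above 96.8% to 97.7% of genes.

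Degradation of *Utf1* lay above 3.97% of genes at 15 min, 11.8% at 30 min and 1.03% at 60 min, the lowest of the 8 at 15 and 60 min, while *Dppa2* was lower at 30 min. *Trim28* was also low at each labeling time, above 12.6% to 15.3% of genes. *L1td1* (70.5% to 76.7%) and *Dppa4* (64.8% to 77.2%) lay above most genes at each time, whereas *Dppa2* ranged from 11.05% to 55.9%, *Tdh* from 18.98% to 41.8%, *Dppa3* from 25.5% to 65.4% and *Dppa5a* from 46.4% to 78.2%. These rates are ratios of the abundances above, each from 2 replicates, and are given as a description.

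Labeling time moved none of the 8 genes past the test. Between 60 and 15 min, 0 of 13977 genes (0%) were called by limma in labeled RNA, in total RNA or in the difference between them, with 178, 108 and 162 genes at an unadjusted p under 0.05. In labeled RNA *Dppa5a* was at 6916 at 15 min, 8361 at 30 min and 10527 at 60 min as means of 2 replicates, which at 60 min were 7168 and 13887 (0.53 ± 0.27 for 60 against 15 min, adjusted p = 1). *Utf1* was at 2544, 2795 and 1947 (-0.39 ± 0.22, adjusted p = 1). The other 6 genes lay between -0.33 and 0.12 in labeled RNA, and all 8 between -0.14 and 0.16 in total RNA.

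Other genes of the pathways in which these proteins act were counted from lists, to be read beside the 11.6% lower and 5.28% higher in exons (median -0.05) and the 30.2% higher in introns (median 0.65) over all genes tested. Of 26 tested genes of the KAP1 silencing complex and its partners, which silence retrotransposons with TRIM28, 8 were lower and 0 higher in exons in labeled RNA, with a median of -0.39. Those with the largest differences were *Chd4* (-0.74), *Dnmt1* (-0.70), *Cbx3* (-0.58) and *Atf7ip* (-0.50), and in introns 3 were higher and 1 lower, a smaller share higher than over all genes (median 0.44). The DNA methylation list holds 9 genes linked to DNA methylation or to DPPA3, which keeps UHRF1 and DNMT1 from chromatin. Of these, 7 were lower and 0 higher (median -0.53), among them *Xpo1* (-1.06), *Dnmt3b* (-0.81) and *Dnmt3a* (-0.65), whereas in introns 2 were higher and 0 lower. *Dnmt1* and *Uhrf1* are in both lists. Of 7 partners of L1TD1 and LIN28, which bind RNA, 5 were lower and 0 higher (median -0.65), with *Lin28a* at -1.16 and *Mov10* at -0.90. Here 0 were called in introns.

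Of 16 genes of threonine and one-carbon metabolism, 3 were lower and 0 higher (median -0.25), *Slc7a5* (-0.88), *Gldc* (-0.53) and *Mthfd1l* (-0.43), and 5 were higher in introns, the latter share being near that over all genes. *Tdh* itself, at -0.33, lay near their median. Only 2 of 14 measured genes of the 2-cell embryo linked to DPPA2 and DPPA4 and 2 of 8 measured KH-domain and maternal-effect relatives of *Dppa5a* reached the minimum abundance, and 0 were called in exons. In introns 0 of 1 and 1 of 3 were called, the latter being *Ooep*, higher at 1.65. Of 11 other mESC markers, 2 were higher in exons, *Klf2* (0.76) and *Fgf4* (0.67), and 1 was lower, *Pou5f1* (-0.50), and 6 of 10 were higher in introns.

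As points of reference, 5 of 10 tested short-lived mRNAs were higher in labeled RNA and 0 lower (median 0.60), including *Ier2* (1.36) and *Id3* (1.34), and 6 of 17 long-lived mRNAs were lower and 0 higher (median -0.15), including *Aldoa* (-0.62). *Utf1*, at -0.68, lay below all 17 of them, and none of the 8 genes lay as high as the median of the short-lived mRNAs. In introns, 5 of 7 short-lived and 15 of 17 long-lived mRNAs were higher. With libraries centred on the median of all genes, the exonic counts were 12 lower and 1 higher for the KAP1 list, 7 lower for DNA methylation, 6 lower for L1TD1 and LIN28 and 4 lower for one-carbon metabolism, whereas the intronic counts turned to 7 lower and 0 higher for the KAP1 list and to 2 lower and 0 higher for DNA methylation.

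The sequences of the main transcripts were compared with those of 8762 protein-coding genes with a main transcript mean of at least 20. This was done since 4sU is built in at uridines and pull-down favors transcripts that hold more of them. *Utf1* is short, with 1224 bases and 246 uridines, and has 20.1% uridine and 63.6% GC, above 99.6% of genes in GC. *Dppa5a* (159 uridines) and *Dppa3* (205) hold fewer, above 5.39% and 8.46% of genes, but more by percentage, 25.7% and 24.6%. They lay at 0.31 and -0.02 in the exonic comparison. The part of uridine content in the exonic differences was not tested. *Trim28* holds 689 uridines at 21.2% of its bases and *L1td1* 608 at 20.7%, beside a median of 693 and 24.8%. *Dppa2* is the richest in uridine at 28.6%, above 84.8% of genes. The motif ATTTA, searched on the sense strand with overlaps counted, occurs in the 3′ untranslated region of *Dppa2*, *Dppa3*, *L1td1* and *Trim28* (1 each) and of *Tdh* (2) and in none of *Utf1*, *Dppa4* and *Dppa5a*, while 69.5% of 8386 such regions hold it.

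The genes most alike to each of the 8 over the 12 libraries were sought among 8740 genes by Pearson's correlation of log2 exonic abundance, as a description without a test, in which all points share their library. For *Dppa2* this was its copy *Gm9788* (r = 0.969), for *Tdh* its copy *Gm13929* (r = 0.991) and for *Dppa5a* its copy *Gm6798* (r = 0.970). For *Dppa3* it was *Gm12516* (r = 0.988), a pseudogene that is not among the copies found above. *Utf1* was most like *Wdtc1* (r = 0.964), *Trim28* like *Supt6h* (r = 0.974), *L1td1* like *Rsrc2* (r = 0.944) and *Dppa4* like *Cpsf4l* (r = 0.933).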

How the data were processed

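RNA of 4sU-labeled mESCs was measured in 12 libraries, 6 labeled and 6 total, grouped by the sample labels. The authors used STAR (2.5.0) to discard rRNA reads and to align the rest to exons and introns, from which RSEM gave abundances, and the deposited signal is a length-normalized abundance of the exons or the introns of a transcript. The scaling and the cutoff at 1 are read from the values, not given in the sources used here. The labels name mm10, and gene names and positions were taken here from GENCODE M1 on NCBIM37, which holds 75.1% of the Ensembl transcripts with an exonic entry. The values are not counts, so the count test planned for that case was not used.

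Missing values were taken as 0. limma 3.58.1 in R 4.3.3 was run on log2(value + 1) over all features with a mean of at least 20 (exons) or 5 (introns), with labeling time as a factor, a trended prior variance, and p-values adjusted by Benjamini and Hochberg, called under 0.05. Labeling times were compared in a fit of 6 group means. The intron-to-exon ratio was that of both values with 1 added. Low values have understated differences on this scale. On simulated data for the exonic comparison of 13977 genes, limma recovered 56 of 100 genes changed by a log2 of 1 and 91 of 100 changed by 2, with 7 false calls. For introns (14780 genes) these were 6 and 57 with 3 false calls, for the ratio (10228 genes) 6 and 50 with 2, and for labeled RNA at 60 against 15 min (13977 genes) 11 and 65 with 3. Far fewer genes were changed in the simulation than were called between labeled and total RNA. The adjustment is stricter with fewer changed genes, so the recovery does not carry over to those comparisons. The simulated noise was independent between genes, without shifts of whole libraries. The false calls therefore do not account for the differences in intronic share between the labeled libraries.

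The replicate number in the labels names 1 of 2 cultures, which pairs labeled and total RNA of a labeling time. Deviations of paired libraries from their group means correlated over genes at -0.0695, 0.0480 and -0.188 at 15, 30 and 60 min. The design has no block for these pairs, and libraries of the same culture were treated as independent. A fit with 1 block per pair was an alternative. For the comparisons of labeling times, the alternative had a term for the replicate number instead.

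Copies were found with blastn 2.17.0. Other steps used Python 3.11.15, numpy 2.4.6, pandas 2.3.3 and matplotlib 3.10.9. All 8 genes are described, and a transcript is named where it is the highest of its gene or holds at least 10 percent of its summed abundance. List genes are named from those called, at most 4 with the largest differences. The 8 genes and the lists were chosen with earlier results of these data known. Alternatives were another pseudocount (0.1 or 20), filter, scaling, missing value, block or trend, and leaving out libraries. Protein sequences were not used here.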

Additional observations from a re-analysis of the deposited data

Results flagged for a closer look

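Among 44 groups of 6 libraries (summed exonic abundance, summed intronic abundance and their ratio, for each gene and fraction), 5 had 1 library far from the others by Dixon's test. Chance flags about 1 in 20 groups, which is 2.2 of 44. In labeled RNA, exonic *Dppa2* was 350 at 15 min of replicate 2, next to 243 in the nearest library, and exonic *Dppa5a* was 13887 at 60 min of replicate 2, next to 8602. In total RNA, exonic *Dppa4* was 692 at 30 min of replicate 1, next to 543. Intronic *Trim28* was 249 in total RNA at 30 min of replicate 2, next to 89.8, and its introns were there at 2.82% of its exons, next to 1.27%. That library is the only total RNA library in which the short intron of the *Trim28* transcript ENSMUST00000123778 has a value.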

How the results depend on the processing

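The counts of called genes changed most with the scaling and with the libraries used. Of the 8 genes, 2 were called in exons; this became 1 with no filter on low values, with the replicate block and with no mean-variance trend, where *Trim28* was lost, 3 with libraries centred on the median, where *Tdh* was added, and 0 to 4 when a library or a replicate was left out. With replicate 1 or 2 left out, 0 of the 8 were called by limma, and 0 and 5 of the 13977 genes tested, with 1356 and 2099 at an unadjusted p under 0.05. *Utf1* was called in all other alternatives. Of 26 transcripts 3 were called, with 0 to 11 when a library or a replicate was left out. In introns 4 of 7 were called, 0 with libraries centred on the median, and 1 to 7 with libraries or a replicate left out. For the intron-to-exon ratio 5 were called, 3 with a filter 5 times as high, 2 with centring, and 0 to 5 with libraries or a replicate left out. Over all genes, the replicate block changed the exonic calls from 2353 to 1270, the transcript calls from 7888 to 4470, the intronic calls from 4494 to 5840 and the ratio calls from 2630 to 3472. With the block, 1 gene in exons, 2 transcripts, 6 genes in introns and 5 in the ratio were called, and 0 in each comparison of labeling times. With replicates 1 and 2 exchanged between fractions at 60 min, an alternative added after seeing the data, 1 gene in exons, 7 transcripts, 5 genes in introns and 5 in the ratio were called. Differences near 0 changed sign: that of *Dppa3* in exons became 0.00082 with centring, 0.038 on 1 transcript per gene (an alternative added after seeing the data), and ran from -0.12 to 0.083 with libraries or a replicate left out. *Dppa4* in introns became -0.033 with centring, and in the ratio *Dppa4* became -0.33 and *L1td1* -0.31 with centring, the latter from -0.29 without replicate 1 to 1.14 without replicate 2. The labeled-to-total difference of *Dppa5a* between 60 and 15 min became -0.11 without the labeled library at 60 min of replicate 2 and 0.85 without that of replicate 1. The comparisons of labeling times gave 0 calls of the 8 genes under every alternative run. The cause of these changes was not tested. Depth is unknown, so no limit from counting can be given.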
